A study of Mus musculus with 2 samples.

Results

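Retinoic acid is made, carried, sensed and destroyed by a small set of proteins, and 9 of their genes were examined in mouse embryonic fibroblasts (MEFs), connective-tissue cells cultured from embryos. The genes were Stra6, Aldh1a1, Aldh1a2, Aldh1a3, Crabp1, Crabp2, Rarb, Cyp26a1 and Cyp26b1. They were selected by gene symbol, for their place in a pathway that regulates anterior Hox genes, from the 19938 genes that had a probe set with a single symbol. All 9 were measured, each by 1 probe set.

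The cultures carried reciprocal uniparental duplications of distal chromosome 7. In the MatDup.dist7 culture both copies of that segment were inherited from the mother, and in the PatDup.dist7 culture both came from the father, while the number of copies was the same. Both came from embryos at 13.5 days post coitum and grew in Dulbecco's medium with fetal bovine serum, and the labels name no retinoid treatment. Each genotype was hybridised to 1 array, so the genotypes could not be tested against each other, there are no p-values, and precision is limited by the count of arrays. Neither the strain nor the number of embryos per culture is stated in these sources.

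Vitamin A circulates as retinol. Cells oxidise retinol to retinal and then, irreversibly, to retinoic acid, which enters the nucleus and binds receptors of the RAR family paired with RXR. These dimers sit on paired copies of a short DNA half-site and switch on target genes, among them Hox genes of the anterior body axis and genes that limit the signal itself. In the embryo, mesoderm makes much of the retinoic acid, and cells that express CYP26 enzymes clear it.

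Promoter sequences of 3 of the genes are printed here, each as the 250 bases upstream of the RefSeq transcription start (build GRCm38.p6), read 5′ to 3′ on the gene's strand. Rarb and Cyp26a1 are shown because they hold the paired half-site to which retinoic acid receptors bind, and Aldh1a2 because it had the largest difference of the 9 genes. Capitals mark the half-sites of that pair only, and single half-sites elsewhere are in lower case.
Rarb, chr14:16575477-16575726, minus strand: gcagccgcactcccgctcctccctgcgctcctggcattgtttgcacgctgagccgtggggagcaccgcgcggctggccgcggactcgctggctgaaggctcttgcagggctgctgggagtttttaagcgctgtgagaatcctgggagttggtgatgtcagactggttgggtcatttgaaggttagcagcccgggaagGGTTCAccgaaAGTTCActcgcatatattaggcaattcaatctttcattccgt
Cyp26a1, chr19:37697558-37697807, plus strand: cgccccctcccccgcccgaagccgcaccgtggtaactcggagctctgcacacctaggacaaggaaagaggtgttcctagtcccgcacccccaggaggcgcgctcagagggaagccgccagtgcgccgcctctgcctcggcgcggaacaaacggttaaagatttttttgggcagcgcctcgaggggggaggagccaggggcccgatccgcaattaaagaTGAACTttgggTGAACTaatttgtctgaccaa
Aldh1a2, chr9:71215539-71215788, plus strand: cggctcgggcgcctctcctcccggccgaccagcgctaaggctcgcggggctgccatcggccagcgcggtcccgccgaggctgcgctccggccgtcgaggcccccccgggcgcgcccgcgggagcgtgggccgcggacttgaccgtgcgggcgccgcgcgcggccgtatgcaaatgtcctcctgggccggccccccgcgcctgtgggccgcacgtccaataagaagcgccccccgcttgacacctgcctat

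The pattern searched was the half-site AGGTCA or AGTTCA or GGGTCA or GGTTCA, followed after 5 bases of any kind by another of these (a direct repeat named DR5), on both strands of the 300-base RefSeq window that runs from 250 bases before to 50 bases after the start. In Rarb the repeat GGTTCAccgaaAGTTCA lay on the gene's own strand, 53 to 37 bases upstream of the start. In Cyp26a1 the repeat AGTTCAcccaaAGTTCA lay on the opposite strand, 32 to 16 bases upstream, so the printed strand shows its complement. Such a repeat stood in 32 of 32851 windows of all genes (0.0974%). Windows were at hand for 7 of the 9 genes, 11 windows in all, and the repeat was in 2 of them; Aldh1a3 and Crabp2 had no entry. Repeats spaced by 1 or 2 bases (DR1 and DR2) were in none of the 11 windows, against 0.222% and 0.268% of all windows. A single half-site, which every repeat contains, occurred in 4 of the 11 windows and in 43.7% of all windows. The Aldh1a2 stretch held none of the repeats and was rich in CG dinucleotides, with 40 against a median of 6 over the same 250 bases of all windows. The Rarb stretch held 16 and the Cyp26a1 stretch 20. A match of letters is a description of the window and not a measured binding site.

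Aldh1a2 and Stra6 were higher by 2-fold or more in PatDup.dist7, and the other 7 of the 9 genes lay within 2-fold. Among all 19938 genes, 3.16% passed 2-fold towards PatDup.dist7 and 4.47% towards MatDup.dist7. Differences are MatDup.dist7 minus PatDup.dist7 of log2(intensity + 16), where the added 16 (the pseudocount) damps differences at low signal. The uptake gene Stra6, the synthesis genes Aldh1a1 and Aldh1a2, both binding protein genes and the receptor gene were on the PatDup.dist7 side, while both CYP26 genes and Aldh1a3 were on the MatDup.dist7 side. In all, 6 of the 9 differences were negative and 3 positive, compared with 9698 negative and 10240 positive over all genes. The median difference was -0.59 for the 9 genes and 0.02 for all genes, and the median absolute difference was 0.65 and 0.38. The 90th percentile of the absolute difference over all genes was 0.92, which Aldh1a2 and Stra6 exceeded. In a mixed culture, fewer cells of a type and less RNA per cell cannot be told apart.

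**Figure D1:**
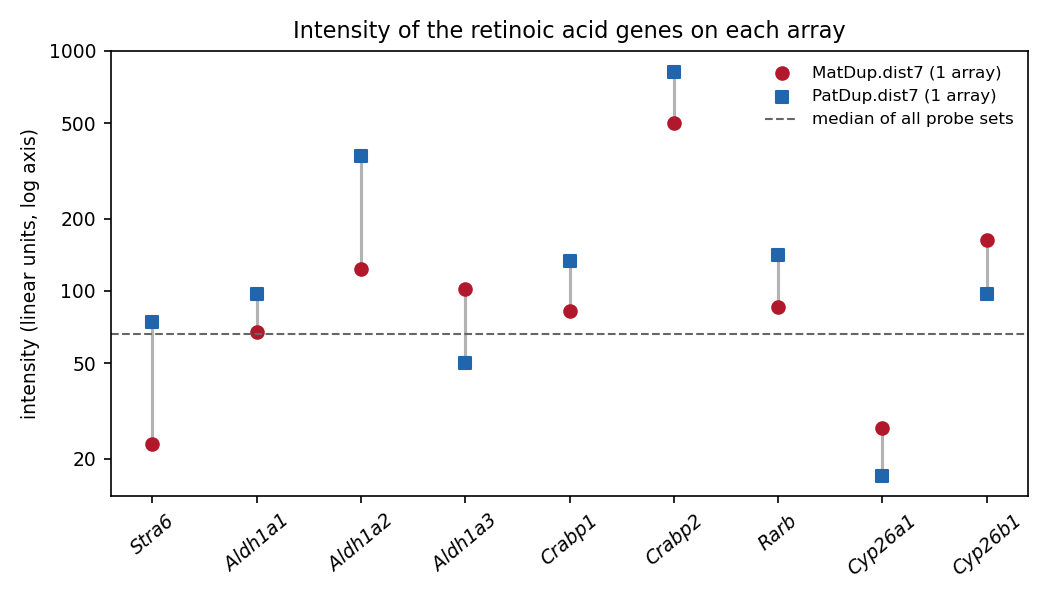
Intensity of each of the 9 genes (log axis, linear units) on the MatDup.dist7 array (red circles) and the PatDup.dist7 array (blue squares), 1 array each, joined by a grey line, with the genes in order of their role and the median of all probe sets dashed at 66.4. The squares lie above the circles for 6 genes, with the longest lines for Stra6 and Aldh1a2, and below them for Aldh1a3, Cyp26a1 and Cyp26b1. Heights of different genes come from different probes and are not to be compared.

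Stra6 is the membrane receptor that takes up retinol from its carrier in blood. Its intensity was 23.0 on the MatDup.dist7 array against 74.1 on the PatDup.dist7 array, a ratio of 3.22. The MatDup.dist7 value lay under the median signal of all probe sets (66.4) and the PatDup.dist7 value just above it. The log2 difference was -1.21, a 2.31-fold difference on that scale, and 1.63% of all genes had a difference as low or lower. With a pseudocount of 64 it was -0.67, within 2-fold, and with a pseudocount of 1 it was -1.64. Of the 9 genes, Stra6 thus had the largest plain ratio and the widest range over the alternative settings.

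The enzymes of the ALDH1A family carry out the last, irreversible step from retinal to retinoic acid. Aldh1a2, the main source of retinoic acid in the early embryo, had an intensity of 124 in MatDup.dist7 against 363 in PatDup.dist7, a ratio of 2.93. Its log2 difference was -1.44, or 2.71-fold on that scale, and 0.838% of all genes had a difference as low or lower. Both values lay above the median signal, and the gene stayed beyond 2-fold with pseudocounts of 1 and 64, a floor on low signals, median centring and quantile normalisation, between -1.55 and -1.19. Of the genes past 2-fold under any setting, Aldh1a2 was the one that passed under every setting run.

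Aldh1a3, the family member known from the eye and the nose of the embryo, went the other way. The MatDup.dist7 array gave 102 and the PatDup.dist7 array 50.1, a ratio of 2.04 and a log2 difference of 0.84. With a pseudocount of 1 the difference was 1.01, which passed the 2-fold line. With that setting 10.9% of all genes passed 2-fold towards MatDup.dist7 and 8.55% towards PatDup.dist7, among the latter Aldh1a2 and Stra6. Aldh1a1, which is widely expressed and also clears other aldehydes, had 67.5 and 97.2, a log2 difference of -0.44. Its close paralogue Aldh1a7, from which its probes may receive signal, had 32.1 and 19.1 (0.46), the opposite sign. The ALDH1A genes thus differed in sign from each other, and the plot of differences among all genes sets Aldh1a2 apart from the other two.

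**Figure D2:**
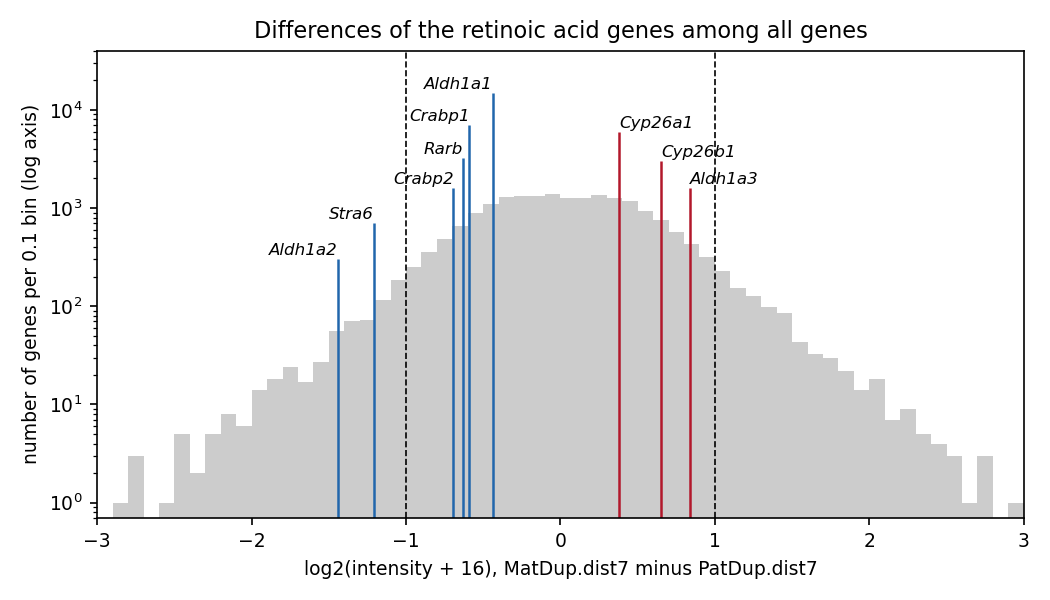
Histogram of the log2(intensity + 16) difference, MatDup.dist7 minus PatDup.dist7, over all genes (grey, number of genes per 0.1 bin on a log axis), with a vertical line for each of the 9 genes (blue negative, red positive) and dashed lines at 2-fold. Line heights only separate the names. Aldh1a2 at -1.44 and Stra6 at -1.21 lie outside the dashed lines and the other 7 inside; 8 genes with an absolute difference over 3 fall outside the axis.

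The cellular retinoic acid binding proteins ferry retinoic acid through the cytoplasm. Crabp2, which delivers it to nuclear receptors, had an intensity of 498 against 815 (MatDup.dist7 first), a difference of -0.69. Crabp1, thought to hold it in the cytoplasm and pass it to breakdown, had 82.8 and 133, a difference of -0.59. Both were higher in PatDup.dist7 by a similar ratio, 1.64 for Crabp2 and 1.60 for Crabp1, and neither reached 2-fold under any of the 7 alternatives.

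Rarb encodes the retinoic acid receptor beta, whose own promoter carries the paired half-site printed above. The MatDup.dist7 array gave an intensity of 85.3 and the PatDup.dist7 array 141, which is -0.63 on the log2 scale. Rarb stood on the same side as Aldh1a2, within 2-fold, with a range of -0.72 to -0.46 over the 7 alternatives.

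The CYP26 enzymes oxidise retinoic acid and end the signal. Cyp26a1, the other gene with the paired half-site, had 26.8 for MatDup.dist7 against 16.9 for PatDup.dist7, a difference of 0.38. It was the only one of the 9 genes under the signal filter, which keeps the 12733 genes whose higher value exceeded the median signal. Cyp26b1, active in the limb and the hindbrain of the embryo, had 162 and 97.5, a difference of 0.65. Both breakdown genes were thus higher in MatDup.dist7, within 2-fold, and the 2 genes with the half-site pair, Rarb and Cyp26a1, differed in sign. Stra6 passed this filter through its PatDup.dist7 value alone, and Aldh1a3 through its MatDup.dist7 value alone.

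No spread between cultures stands behind these differences. As a scale, the log2 difference varied between probe sets of the same gene with a standard deviation of 0.40 (1722 probe sets of 642 genes above the signal filter), which reflects probes within the arrays only. The difference of Cyp26a1 was below this value and that of Aldh1a1 only slightly above it. After quantile normalisation each of the 9 genes kept its sign. The same held with the arrays centred on their medians, a shift too small to change any of the signs.

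**Figure D3:**
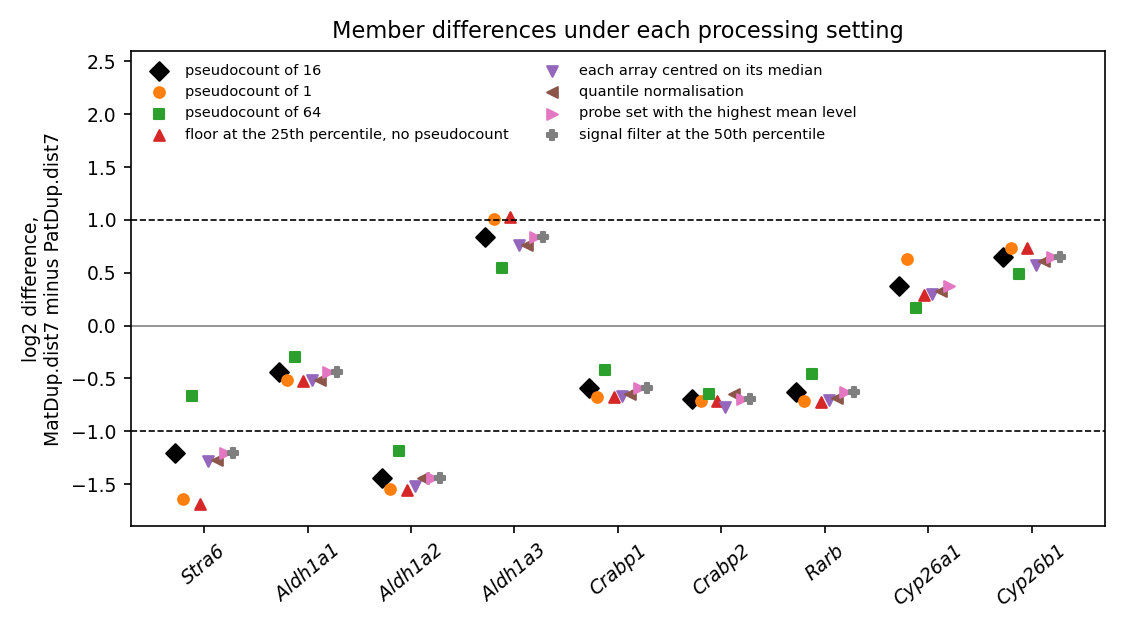
Log2 difference, MatDup.dist7 minus PatDup.dist7, of each of the 9 genes with a pseudocount of 16 (black diamonds) and under 7 alternative settings (coloured symbols; 6 for Cyp26a1, which is under the signal filter), with dashed lines at 2-fold. No gene crosses 0; Stra6 ranges from -1.69 to -0.67 and Aldh1a3 from 0.54 to 1.03, while all symbols of Aldh1a2 lie beyond the line.

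The genes were also placed among their neighbours on the chromosomes. Crabp1, Stra6 and Aldh1a2 all lie on chromosome 9, with 54 measured genes between the first pair and 121 between Stra6 and Aldh1a2. On that chromosome 3.86% of 1165 genes were higher by 2-fold or more in PatDup.dist7, and its median difference was 0.04. Among the 20 nearest measured neighbours of Aldh1a2 (10 on each side) none was higher by 2-fold or more in PatDup.dist7, and 1, Cgnl1, was so in MatDup.dist7 (294 and 131, 1.07). The neighbours' median was 0.13. Among the 20 neighbours of Stra6 the median was -0.06, and 1, Cyp1a1, was past 2-fold, also towards MatDup.dist7 (23.0 and 0.00857, 1.28). Both of its values are low, so the size of that difference depends on the pseudocount. No neighbour of either gene was thus past 2-fold in the direction of the gene itself.

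Aldh1a3 is the only one of the 9 genes on chromosome 7, the chromosome of the duplicated segment. It held place 792 of 1734 measured genes in order along it, with 902 measured genes between it and Igf2, the paternally expressed growth factor gene of the distal imprinted cluster. No source used here states where the segment begins, and whether Aldh1a3 lies inside it was not established. Its 20 neighbours had a median difference of 0.10, and Tm2d3 alone was at least 2-fold apart (77.6 and 16.4, 1.53).

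**Figure D4:**
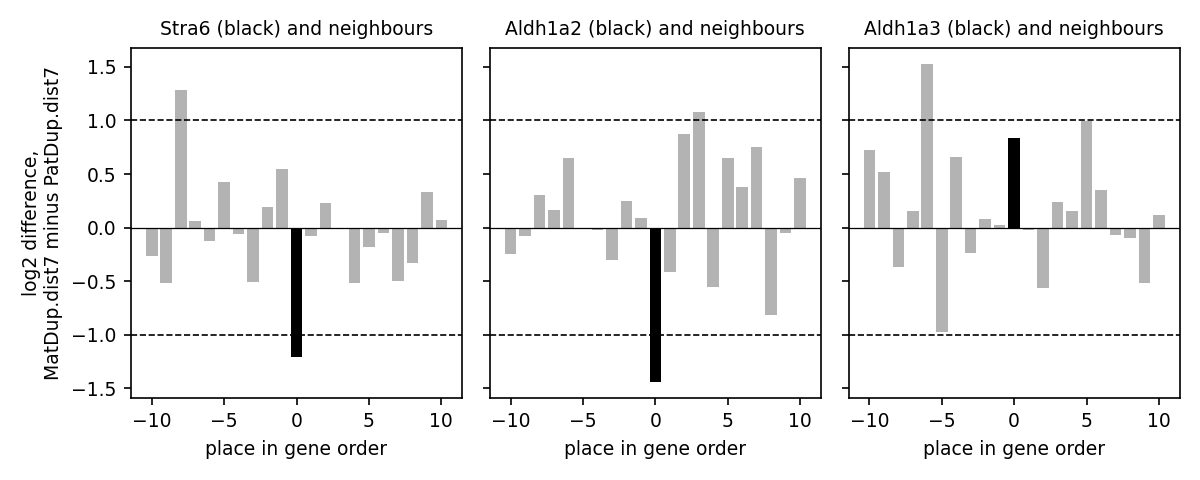
Log2 difference, MatDup.dist7 minus PatDup.dist7, of Stra6, Aldh1a2 and Aldh1a3 (black bars at place 0) and of the 10 nearest measured genes on each side in order along the chromosome (grey bars), with dashed lines at 2-fold. The black bars of Stra6 and Aldh1a2 are the only ones below the lower line; 1 neighbour in each panel passes the upper line.

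Other genes of the pathway were taken as lists. Over 85 measured genes of these lists without the 9 above, 8 passed 2-fold towards MatDup.dist7 and 3 towards PatDup.dist7, beside 4.47% and 3.16% of all genes, with a median of 0.17. The 3 are near the share of all genes, and 4 of the 8 are the Hox genes named further on. Of 13 genes for the supply and storage of retinol none was 2-fold apart (median 0.04), and the largest difference was that of Rbp7, a cellular retinol binding protein gene, with 26.1 and 6.17 (0.93). Of 21 genes for enzymes that interconvert retinol and retinal, 2 passed 2-fold towards MatDup.dist7 and 1 towards PatDup.dist7. The former were the retinol dehydrogenase genes Dhrs9 (61.2 and 14.3, 1.35) and Rdh7 (27.8 and 4.89, 1.07), and the latter was Rdh5 (7.24 and 43.0, -1.34). All of these named enzymes lay under the signal filter. Their list had a median of 0.13.

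Of the 5 remaining genes of retinoic acid oxidation and transport, 1 was past 2-fold (list median 0.26). This was Fabp5, which encodes a fatty acid binding protein that can carry retinoic acid to another class of nuclear receptor. Its probe sets gave 29.2 and 90.5 (-1.24) and 19.2 and 91.9 (-1.61), so that both were higher in PatDup.dist7, as Aldh1a2 and Stra6 were. Signal from near-identical copies of the Fabp5 sequence was not separated. Cyp26c1, the remaining CYP26 gene, had 82.0 and 59.9 (0.37), the same sign as Cyp26a1 and Cyp26b1.

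The other nuclear receptors lay within 2-fold; their median was 0.20, and 4 of the 5 were positive. Rara, the broadly expressed receptor, had 302 in MatDup.dist7 against 256 in PatDup.dist7 (0.22). Rarg had 232 and 143 (0.64), opposite in sign to Rarb. The RXR partners Rxra (730 and 645, 0.17), Rxrb (193 and 243, -0.31) and Rxrg (51.2 and 42.4, 0.20) differed little. Among 12 co-regulators of the receptors, 1 passed 2-fold in each direction, beside 4.47% (MatDup.dist7) and 3.16% (PatDup.dist7) of all genes. The coactivator gene Ncoa7 (44.4 and 6.76, 1.41) was higher in MatDup.dist7 and the acetyltransferase gene Kat2b (25.2 and 86.9, -1.32) in PatDup.dist7, with a list median of -0.34. Ncoa7 lay under the signal filter, and Kat2b passed it through its PatDup.dist7 value alone.

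Genes that respond to retinoic acid, as far as that is textbook knowledge, had a median of 0.21 over 21 measured members. Of these, 1 passed 2-fold, towards MatDup.dist7. It was Cdx1, a homeobox gene of the posterior body axis, with 78.0 and 28.7 (1.07). Dhrs3, which returns retinal to retinol and is a known early target, had 961 and 827 (0.21). The response list, with 14 differences positive and 7 negative, thus had a median of opposite sign to that of the 9 genes. It leaves out the 9 genes, Rarb and Cyp26a1 among them. It also shares genes with the other lists, among them Rara, Rarg, Cyp26c1, Dhrs3 and Hoxb1, so this contrast depends on how the lists were drawn.

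The anterior Hox genes, for which the pathway was chosen, were on the MatDup.dist7 side. Of 14 measured, 11 differences were positive and the median was 0.75. In MatDup.dist7, 4 genes were higher by 2-fold or more, as were 4.47% of all genes. They were Hoxa5 (469 and 55.8, 2.76), Hoxa3 (140 and 24.0, 1.96), Hoxa4 (68.0 and 8.48, 1.78) and Hoxc5 (184 and 45.4, 1.71). All 4 passed the signal filter through their MatDup.dist7 values alone, so the sizes of their differences depend on the pseudocount. Hoxb1, a direct target of the receptors, had 191 and 109 (0.72). In MatDup.dist7, where these Hox genes were higher, 6 of the 9 retinoic acid genes were lower, Aldh1a2, Stra6 and Rarb among them. The other 3, Aldh1a3, Cyp26a1 and Cyp26b1, were higher there, as were the receptor genes Rarg (0.64) and Rara (0.22). A link between these genes and the Hox genes was not tested.

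**Figure D5:**
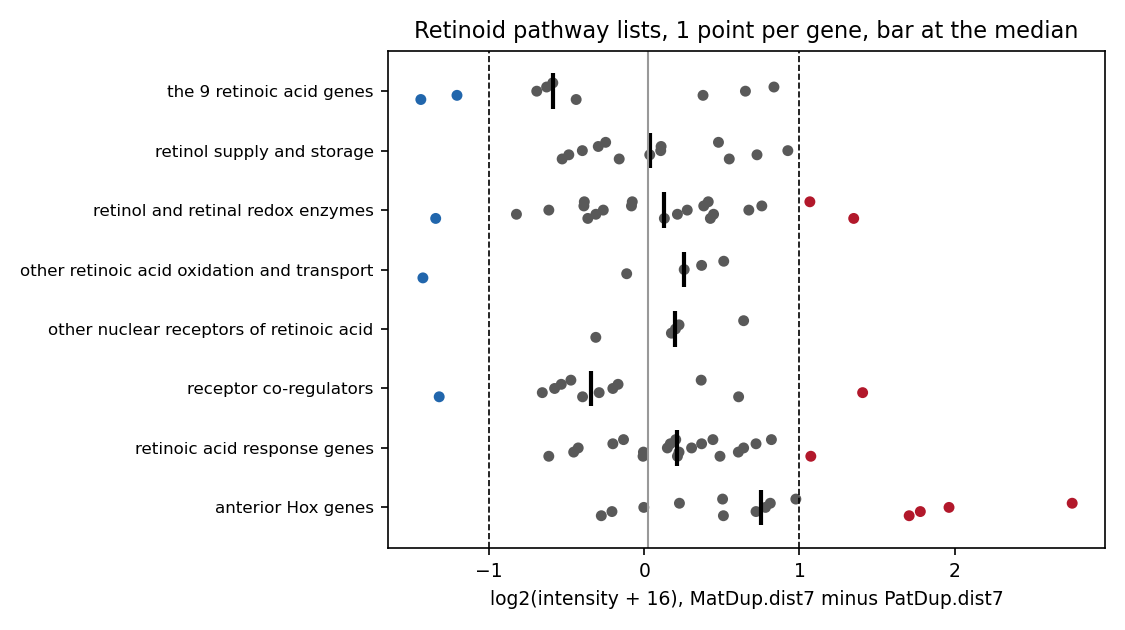
Log2 difference, MatDup.dist7 minus PatDup.dist7, for each measured gene of the 9 retinoic acid genes and of 7 pathway lists (1 point per gene, spread vertically for legibility; red and blue past 2-fold in MatDup.dist7 and PatDup.dist7, grey within it), with black bars at list medians, dashed lines at 2-fold and a grey line at the median of all genes. The bar of the 9 genes lies at -0.59 and that of the anterior Hox genes at 0.75.

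Genes with the DR5 repeat in their window did not share a direction. Of 11 measured, Rarb and Cyp26a1 included, Ppbp (459 and 24.0, 3.57) was higher by 2-fold or more in MatDup.dist7, and Cfap45 (0.00540 and 57.7) and Prokr2 (1.64 and 42.5) were so in PatDup.dist7. The sizes of the latter differences depend on the pseudocount, since the lower values are near the bottom of the scale. The median over the 11 genes was 0.38, which is the value of Cyp26a1. Among all genes 4.47% passed 2-fold towards MatDup.dist7 and 3.16% towards PatDup.dist7.

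Markers of the cells the cultures could hold moved as well, and their part in the differences of the 9 genes was not tested. Of the genes in the fibroblast list, Col1a1 (7565 and 9870) and Vim (11913 and 11542) were far above the median signal in both. Summed over 14 fibroblast markers the intensity was 45449 for MatDup.dist7 against 54782 for PatDup.dist7, with 11 differences negative and 3 positive. Of these markers 2, Postn (-1.75) and Dcn (-1.95), were higher by 2-fold or more in PatDup.dist7. The largest difference the other way was that of S100a4 (246 and 130, 0.84). The mesothelium, the lining of body cavities, is a known site of Aldh1a2 expression in the embryo. Its 11 markers summed to 1235 and 722, with Msln (1.75) and Krt19 (2.27) higher by 2-fold or more in MatDup.dist7 Wt1 at 223 and 178 (0.30), and 3 of the 11 negative (Gpm6a at -0.73, Upk1b and Muc16). Krt19 and Cdh1 (129 and 68.3, 0.79) are also in the epithelial list, so the sums of these lists share both genes. Epithelial markers (12, of which 10 were positive and 3, namely Sfn, Krt19 and Krt5, past 2-fold) summed to 1584 and 717. Neural and glial markers (11) summed to 2323 and 1409, with 7 differences positive and 4 negative (Sox2 at -0.55, Nes, Map2 and Gfap). Stmn2 (755 and 73.7, 3.10), the 1 past 2-fold, and Tubb3 (633 and 324) had the largest intensity gaps between the arrays. Cartilage markers (9, of which 8 were positive, with Col2a1 at 1.97 and Comp at 1.79) summed to 1252 and 575. Macrophage markers summed to 4766 and 5148, with 7 of 10 differences negative and 1 of them, Mrc1 (-1.32), past 2-fold. Endothelial markers summed to 437 and 439, with 4 of 8 differences positive, 4 negative and only 2 markers above the signal filter. Esam (1.27) was the 1 past 2-fold, with an intensity under 1 in PatDup.dist7, and the lowest difference was that of Kdr (-0.75). Muscle markers (9) summed to 3050 and 2666, but 5 differences were negative and the median was -0.09, with Myf5 at -0.81 the largest in size. Acta1 alone had 1887 and 1379. Adipocyte markers (7, of which 5 were positive) summed to 629 and 559, with Cebpa at 0.67 the largest. Neither list held a marker past 2-fold.

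The cultures also differed in sex-linked transcripts. Xist, the RNA that coats the inactive X chromosome, had a listed value of 0.00166 on the MatDup.dist7 array against 91.2 on the PatDup.dist7 array, and the Y-linked Eif2s3y had 112 against 6.44. Genotype, sex-linked expression and culture cannot be told apart with 1 array per genotype.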

How the data were processed

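Total RNA of 1 MatDup.dist7 and 1 PatDup.dist7 culture was labelled by the Affymetrix whole-transcript protocol, per the labels. The deposited values are linear intensities, 1 for each probe set on each array. Affymetrix Expression Console is named in the submitters' processing notes, and its normalisation is not given in the sources used. Of 35557 probe sets, 21789 had 1 gene symbol in the platform annotation, 1621 had several and 12147 none; only the first were used, and 21698 of their gene identifiers were matched to the RefSeq gene table (GRCm38.p6). Median intensity was 68.6 (MatDup.dist7) and 64.2 (PatDup.dist7).

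From these, log2(intensity + 16) was computed, probe sets of a gene were averaged, and the arrays were subtracted (Python 3.11.15, pandas 2.3.3). The arithmetic alone was checked, on simulated arrays without noise in which genes of high signal were changed by a set amount. That check says nothing about precision at low signal. The signal filter, used where named, was the median of all intensities, 66.4. The 9 genes, the lists and the pseudocount were chosen with earlier results of these data known. All 9 genes are named; of each other list, members past 2-fold (at most 6) or else the one with the largest difference, and every other receptor. Genes named beyond this rule (Aldh1a7, Cyp26c1, Dhrs3, Rdh10, Hoxb1, Wt1, Gpm6a, Upk1b, Muc16, Cdh1, Col1a1, Vim, S100a4, Tubb3, Sox2, Nes, Map2, Gfap, Kdr, Acta1, other Aldh and Fabp genes, neighbours and genes with the repeat) were chosen after their values were seen. Promoters came from RefSeq and the motif scan counted matches on both strands.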

Additional observations from a re-analysis of the deposited data

How the results depend on the processing

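All 9 genes kept their sign under median centring and quantile normalisation. Centring shifted every gene alike, by less than the smallest of the 9 differences, so it could not change a sign. The other alternatives (pseudocounts of 1 and 64, a floor at the 25th percentile, the brightest probe set, and the signal filter, which removed Cyp26a1) could not change a sign, and with 1 probe set per gene the brightest probe set and the filter left each remaining value as it was. The number of the 9 genes at least 2-fold apart was 2, and 1 with a pseudocount of 64, where Stra6 fell within 2-fold; it was 3 under the floor or a pseudocount of 1, where Aldh1a3 passed. The median of the 9 genes, -0.59, ranged from -0.68 to -0.42. Of the genes of the other pathway lists, 11 were past 2-fold, with 19 at pseudocount 1, 3 at pseudocount 64 and 7 above the signal filter, which left 57 of 85. Over all genes, those past 2-fold towards MatDup.dist7 and towards PatDup.dist7 numbered 891 and 631, 2183 and 1704 at pseudocount 1, 93 and 80 at pseudocount 64, 349 and 308 above the signal filter, and 696 and 824 after median centring, which moved the median of all genes from 0.02 to -0.06. No paired analysis was possible because each genotype had 1 array. Low signal limits Stra6 in MatDup.dist7, Aldh1a3 in PatDup.dist7 and Cyp26a1 in both arrays.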

Other observations

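The wider families of the synthesis enzymes and of the carriers were described by symbol, a choice made after values had been seen. Of 18 other measured aldehyde dehydrogenase (Aldh) genes none was at least 2-fold apart, and their median difference was 0.07, with Aldh3a1 (32.7 and 12.7, 0.76) and Aldh6a1 (106 and 181, -0.69) at the ends of the range. Of 9 fatty acid binding protein (Fabp) genes, relatives of Crabp1 and Crabp2, Fabp5 was the 1 past 2-fold. Fabp1 (51.8 and 19.5, 0.93) and Fabp2 (4.16 and 20.5, -0.86) followed in size, in opposite directions, and the family's median was 0.38. Rdh10, the retinol dehydrogenase that supplies retinal in the embryo, had 299.6 for MatDup.dist7 against 467 for PatDup.dist7 (-0.61), the same sign as Aldh1a2 and within 2-fold.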
